A study of Mus musculus with 8 samples.

Results

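Heat shock factor target chaperones are the genes that cells transcribe when proteins misfold. They were followed here as 10 genes, taken by symbol from the 21959 genes of the deposited table: Hspa1a, Hspa1b and Hspa8 of the HSP70 family, the HSP70 partners Hsph1, Dnajb1 and Bag3, Hsp90aa1, the small heat shock protein gene Hspb1, and the mitochondrial chaperonin genes Hspd1 and Hspe1. The genes were chosen by name with the IsoL and Model counts already known. They were thus selected on the difference described below, which is given for them as a description. Errors are printed and no p-value is, and nothing is read from the counts of calls in a fit across all genes. Polyadenylated RNA of mouse brain was sequenced in 8 libraries, 4 labelled Model and 4 labelled IsoL, all of genotype WT. The Model mice carry the treatment label PCPA (para-chlorophenylalanine, which blocks serotonin synthesis), and the IsoL mice the label Isoliensinine, a plant alkaloid. According to the design text the mice were female ICR animals that received daily doses over 7 days (IsoL at 12.5, 25 or 50 mg/kg), were injected with sodium pentobarbital 40 minutes after the last dose and had the hypothalamus removed. Which dose was sequenced and whether PCPA was also given to IsoL mice is not labelled, and the tissue is labelled brain.

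Heat shock factor HSF1 is held inactive by chaperones in unstressed cells. When misfolded proteins occupy those chaperones, HSF1 forms trimers, binds repeated GAA units (heat shock elements) before its target genes and switches on more chaperones. HSP70 binds exposed hydrophobic stretches of client proteins in a cycle of ATP hydrolysis that J-domain partners start and nucleotide exchange factors end, HSP90 matures signalling proteins, and small heat shock proteins hold unfolded proteins for refolding. Neurons express the constitutive members at high levels and are known for a weak induction of the inducible HSP70 genes, which glia induce more readily.

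Model libraries held 14262836 to 15886850 summed gene counts and IsoL libraries 15731923 to 21620466. Model 2 stood apart from the other libraries (chi-square per degree of freedom 11.4 to 15.9 in its pairs, against 2.58 to 10.1 in the others). Counts of 4 Y-linked genes summed to 4330 to 6779 in each of the 8 libraries, which goes against the stated female sex. All 6 neuronal markers were read in every library, and their summed level overlapped between groups, at 4190 to 4779 CPM (counts scaled by TMM to a common library size) in Model and 4175 to 4522 in IsoL. The 8 hypothalamic markers were also read in every library. Their sum was 171 to 203 CPM in Model and 67.0 to 140 in IsoL, with no overlap. Of the 8 markers, 6 had a fitted log2 fold change below 0, not all of them, and 1 was called lower. The sum of 6 astrocyte markers ran the other way without overlap, from 1514 to 1606 CPM in Model and from 1628 to 1788 in IsoL. Oligodendrocyte markers summed to 13721 to 14098 and 13960 to 15418 CPM, microglial markers to 192 to 227 and 222 to 262, endothelial and mural markers to 374 to 403 and 348 to 397, red cell markers to 107 to 124 and 93.8 to 148, and cortical and hippocampal markers to 160 to 198 and 146 to 283. Choroid plexus markers summed to 18.3 to 25.6 CPM in Model and to 706, 611, 71.9 and 18.1 in IsoL 1 to 4. The cortical and hippocampal sum was 283, 275, 175 and 146 CPM in IsoL 1 to 4. IsoL 1 and IsoL 2 thus stood highest for choroid plexus as well as for cortex and hippocampus. Of these lists, the choroid plexus gene Aqp1, the red cell gene Hba-a2 and the cortical gene Emx1 had a count of 0 in some libraries, and no marker had 0 in all. The part of these shifts in tissue and cell type in the values below was not tested, and in bulk tissue fewer cells of a type and less RNA per cell cannot be told apart.

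The inducible HSP70 genes, Dnajb1, Hspb1 and Hsph1 were lower in IsoL with no overlap between the groups, whereas the groups overlapped for Hspa8, Hsp90aa1, Hspd1, Hspe1 and Bag3. For 5 of the 10 genes every IsoL library lay below every Model library, a pattern seen in 4.42% of the 14536 genes tested (8.48% in either direction). In edgeR's quasi-likelihood test across all genes, 2 of the 10 (Dnajb1 and Hspa1a) were among the genes called at a Benjamini-Hochberg adjusted p of 0.05, beside 0.275% of all genes in either direction and 0.158% in the lower direction. The fitted log2 fold change was below 0 for 9 of the 10, beside 50.5% of genes tested, and its median was -0.27, beside -0.0015 for all genes tested. Hspa1a passed the low-count filter through the 4 Model libraries (1 IsoL library reached the limit) and so had to differ; the median was -0.26 without it. Leaving out Model 4, IsoL 1, IsoL 2 or IsoL 4 ended the call of Hspa1a and left Dnajb1 as the only 1 called. Without Model 2, Hsph1 was called too. The list was drawn up from this contrast. Nothing is therefore read from these counts of calls, non-overlap or direction, or from the median. The 5 genes without overlap include Hspa1a and Hspa1b, which may share reads. Nothing in the labels ties each library to its own mouse, so errors and p-values measure only a spread between libraries that may be technical.

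**Figure D1:**
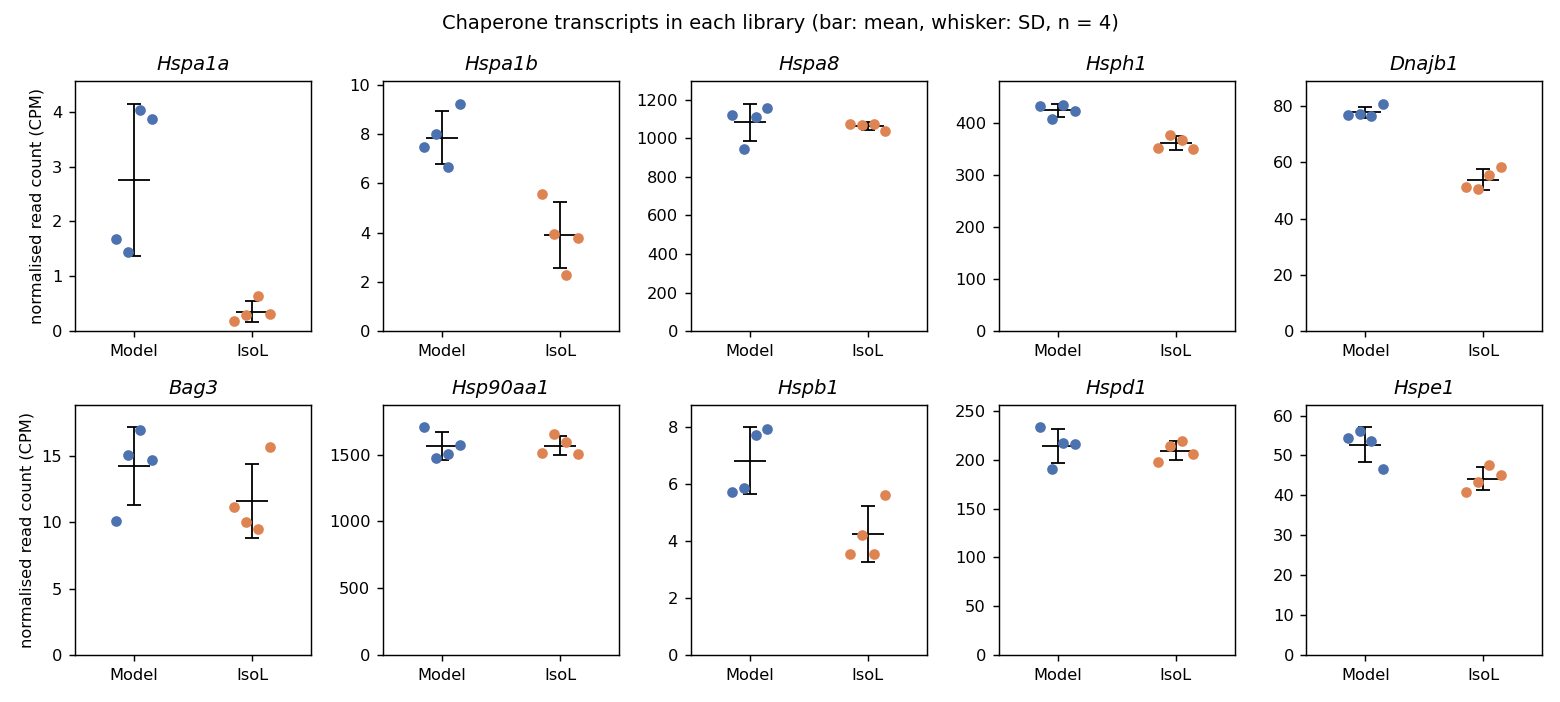
Normalised read count (CPM, linear axis from 0) of the 10 chaperone genes in each library, Model in blue and IsoL in orange, with the group mean and SD (n = 4). The groups are apart for Hspa1a, Hspa1b, Hsph1, Dnajb1 and Hspb1 and overlap for the other 5 genes.

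Hspa1a and Hspa1b encode the stress-inducible cytosolic HSP70 and lie next to each other on chromosome 17 (35188166 to 35191132 and 35175412 to 35178214, minus strand, in the deposited table's coordinates, build not given in the sources used here). In these coordinates 2225 of the 2967 bases of Hspa1a also lie in Gm20481, a plus-strand gene with 0 counts. Without a stated strand setting, reads there may have been dropped. Hspa1a had 24, 23, 58 and 57 reads in Model 1 to 4 and 3, 5, 10 and 7 in IsoL 1 to 4. All IsoL libraries were thus below all Model libraries, and the Model libraries themselves formed a lower and a higher pair. In normalised counts this was 2.76 ± 1.39 CPM in Model and 0.357 ± 0.193 in IsoL (SD, n = 4), with a fitted log2 fold change of -2.93 (SE 0.45). The 162 Model reads and 25 IsoL reads give a Model level 7.74 times that of IsoL, with an exact 95% interval of 5.06 to 12.3 that covers counting error only.

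Hspa1b was at 7.48, 8.01, 6.68 and 9.24 CPM in Model 1 to 4 and at 5.59, 3.94, 2.28 and 3.80 in IsoL 1 to 4. The groups did not overlap, and IsoL 3 was the lowest library. The means were 7.85 ± 1.07 and 3.90 ± 1.35 CPM (SD, n = 4), a log2 fold change of -1.01 (SE 0.21). These values rest on an uncertain split of reads. The GENCODE M21 transcripts of both genes share an identical run of 638 bases, and 47.1% of all 100-base windows of Hspa1a occur unchanged in Hspa1b; a read length was not given in the sources used here. Summed as 1 feature before the fit, the genes had 131, 151, 154 and 193 reads in Model 1 to 4 and 94, 73, 46 and 90 in IsoL 1 to 4. The sum therefore also separated the groups, at 10.6 ± 1.80 CPM in Model and 4.26 ± 1.17 in IsoL (SD, n = 4; log2 fold change -1.31, SE 0.19). The sum is not affected by how reads were split between the 2 genes. Reads dropped for matching both, or for overlapping Gm20481, would lower it.

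The sequence before the start of both genes is shown because the copies are near-identical there too, and each holds a match to a heat shock element. RefSeq promoter windows (GRCm38.p6) were found for 8 of the 10 genes, and 250 bases before each start were searched on both strands for the 2-unit elements GAANNTTC and TTCNNGAA and the 3-unit element GAANNTTCNNGAA, which contains both. Hspa8 and Hsp90aa1 had no entry. The 2 windows differ at 3 of 250 positions, 207, 204 and 2 bases before the start. The last 120 bases before the start, chr17:34972157-34972276 for Hspa1a and chr17:34959239-34959358 for Hspa1b, both minus strand and outside annotated exons' untranslated parts in GENCODE M21, are written with the element in capitals:
Hspa1a: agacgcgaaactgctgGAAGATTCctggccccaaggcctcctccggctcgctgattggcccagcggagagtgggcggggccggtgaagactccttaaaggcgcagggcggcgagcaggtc
Hspa1b: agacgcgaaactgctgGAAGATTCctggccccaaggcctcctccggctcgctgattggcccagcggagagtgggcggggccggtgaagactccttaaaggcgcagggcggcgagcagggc
The element starts 104 bases before the start in both. Either 2-unit form was present for 6 of the 8 genes with a window (Hspa1a, Hspa1b, Hspb1, Hspd1, Hspe1 and Hsph1), beside 14.5% of 27025 genes, and the 3-unit form for Hspd1 and Hspe1, beside 0.514%. The Hspa1 copies are near-identical and Hspd1 and Hspe1 share their window, so these 6 genes are not independent sequences. A match is a run of letters and was not measured as a binding site.

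Hspa8 encodes the constitutive HSP70 of the cytosol, which also uncoats clathrin vesicles at synapses. It was at 1120, 942, 1112 and 1157 CPM in Model 1 to 4 and at 1076, 1068, 1073 and 1036 in IsoL 1 to 4. The IsoL libraries lay inside the Model range, whose lower end was set by Model 2. The other Model libraries, at 1112 to 1157 CPM, lay above every IsoL library (log2 fold change -0.087 without Model 2). The means were 1083 ± 95.8 and 1063 ± 18.6 CPM (SD, n = 4; log2 fold change -0.03, 95% interval -0.15 to 0.10). The inducible genes Hspa1a and Hspa1b were a small part of the transcripts per length summed over them and Hspa8. Reads dropped for matching both copies, or for overlapping Gm20481, would lower this part. Hspa1a and Hspa1b made up 1.23, 1.50, 1.43 and 1.68% of the summed FPKM (counts per kilobase of gene, scaled to library size by the authors) of Hspa1a, Hspa1b and Hspa8 in Model 1 to 4. In IsoL 1 to 4 they made up 0.815, 0.602, 0.410 and 0.605%. The share was lower in every IsoL library than in every Model library, with means of 1.46 ± 0.188% and 0.608 ± 0.166% (SD, n = 4).

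Dnajb1, Hsph1 and Bag3 act on the HSP70 cycle. Dnajb1 (chromosome 8, 84334822 to 84339282) encodes a J-domain protein that delivers clients to HSP70 and starts its ATPase. It was at 76.7, 77.0, 76.3 and 80.7 CPM in Model 1 to 4 and at 51.1, 50.5, 55.3 and 58.2 in IsoL 1 to 4. The gap between the groups was wider than the range within either. The Dnajb1 means were 77.7 ± 2.06 and 53.8 ± 3.61 CPM (SD, n = 4; log2 fold change -0.53, SE 0.06). Set against Hspa8 in the same library, its FPKM was 0.0919 to 0.110 of that of Hspa8 in Model and 0.0635 to 0.0754 in IsoL. The sequence before its upstream RefSeq start (chr8:83608055-83608174, plus strand, GRCm38.p6) is shown for comparison with the Hspa1 copies; neither 2-unit form is in its 250-base windows, which says nothing of the factor's binding:
Dnajb1: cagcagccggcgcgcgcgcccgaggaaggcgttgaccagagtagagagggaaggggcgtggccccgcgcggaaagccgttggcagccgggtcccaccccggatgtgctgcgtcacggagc

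Hsph1 (chromosome 5, 149537752 to 149559841) encodes HSP110, a nucleotide exchange factor of HSP70 that works with J-domain proteins to dissolve aggregates. It was at 432, 407, 435 and 422 CPM in Model 1 to 4 and at 351, 377, 368 and 349 in IsoL 1 to 4. The groups did not overlap, although the difference was smaller than for Dnajb1. The means were 424 ± 12.5 and 361 ± 13.6 CPM (SD, n = 4; log2 fold change -0.23, SE 0.04), which is 14.8% lower in IsoL. A 2-unit element starts 33 bases before the first of its RefSeq starts, and 26 of the 30 bases shown are exonic in other annotated transcripts (chr5:149636351-149636380, minus strand, GRCm38.p6). It is in capitals as the only match in that window:
Hsph1: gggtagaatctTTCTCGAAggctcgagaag

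Bag3 (chromosome 7, 128125340 to 128148705) encodes an HSP70 exchange factor that sends clients to autophagy, and it is a target of HSF1 in many cells. It was at 10.1, 15.1, 17.0 and 14.7 CPM in Model 1 to 4 and at 11.2, 10.0, 9.49 and 15.6 in IsoL 1 to 4. The groups overlapped, with Model 1 among the low values and IsoL 4 among the high ones. The log2 fold change was -0.29 (95% interval -0.69 to 0.12) and was -0.47 without IsoL 4 and -0.18 without Model 3.

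**Figure D2:**
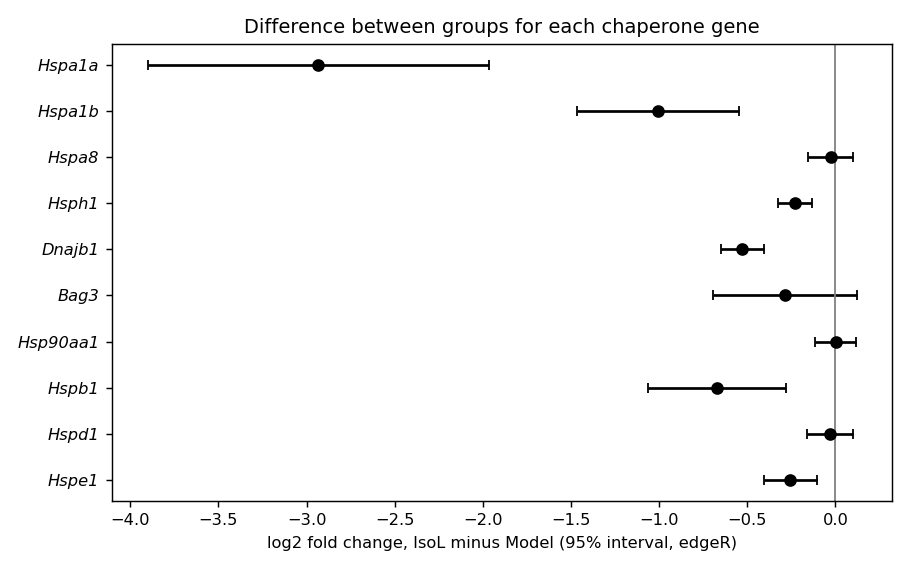
Log2 fold change of each chaperone gene (IsoL minus Model, horizontal axis) with its 95% interval from edgeR. Values run from -2.93 for Hspa1a to 0.0019 for Hsp90aa1. The intervals show the spread between libraries. The genes were selected with this contrast known, so nothing is read from whether an interval includes 0.

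Hsp90aa1 (chromosome 12, 110657039 to 110669162) encodes the inducible cytosolic HSP90, which is nevertheless abundant in unstressed brain. It was at 1704, 1476, 1502 and 1576 CPM in Model 1 to 4 and at 1511, 1652, 1596 and 1507 in IsoL 1 to 4. The groups overlapped over nearly their whole range. The means were 1565 ± 102 and 1567 ± 70.1 CPM (SD, n = 4), and the 95% interval of the log2 fold change was -0.11 to 0.12.

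Hspb1 (chromosome 5, 135916773 to 135918417) encodes HSP25, the mouse form of human HSP27, a small heat shock protein of glia, vessels and some neurons. It was at 5.73, 5.88, 7.72 and 7.94 CPM in Model 1 to 4 and at 3.56, 4.23, 3.54 and 5.64 in IsoL 1 to 4. The groups came close but did not overlap, with IsoL 4 just below Model 1. The means were 6.82 ± 1.17 and 4.24 ± 0.984 CPM (SD, n = 4), with a log2 fold change of -0.67 (SE 0.18). Summed endothelial and mural markers overlapped between the groups and astrocyte markers were higher in IsoL, as given above. The part of cell types in the Hspb1 difference was not tested. Its window holds 2 separate elements, which start 117 and 97 bases before the start (chr5:135887799-135887918, plus strand, GRCm38.p6), and is shown because both lie close together:
Hspb1: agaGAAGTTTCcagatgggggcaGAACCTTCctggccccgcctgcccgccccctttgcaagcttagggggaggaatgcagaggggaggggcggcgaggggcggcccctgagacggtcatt

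Hspd1 and Hspe1 encode HSP60 and its lid HSP10, which fold proteins in the mitochondrial matrix. They are transcribed in opposite directions from a shared start region on chromosome 1, where their gene models overlap by 112 bases in the deposited table, and without a stated strand setting reads there may not be separated. Hspd1 was at 233, 190, 217 and 217 CPM in Model 1 to 4 and at 198, 215, 220 and 206 in IsoL 1 to 4. Its IsoL libraries lay inside the Model range (log2 fold change -0.03, 95% interval -0.16 to 0.10). Hspe1 was at 54.5, 56.3, 53.7 and 46.5 CPM in Model 1 to 4 and at 40.8, 43.4, 47.5 and 45.0 in IsoL 1 to 4. The groups overlapped only in that IsoL 3 lay above Model 4. The Hspe1 means were 52.7 ± 4.28 and 44.2 ± 2.80 CPM (SD, n = 4; log2 fold change -0.26, SE 0.07). The ratio of Hspe1 to Hspd1 FPKM was 0.418, 0.530, 0.444 and 0.385 in Model 1 to 4 and 0.370, 0.363, 0.388 and 0.391 in IsoL 1 to 4. The ratios overlapped between groups, and the highest was that of Model 2. Between the starts of both genes lies the only heat shock element of 3 or more units found among the 8 genes, shown on the Hspe1 strand (chr1:55088053-55088082, plus strand, GRCm38.p6) with its alternating units in capitals:
Hspe1: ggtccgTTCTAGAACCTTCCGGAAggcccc
It starts 89 bases before the start of Hspe1 and, read on the other strand, 144 bases before the downstream start of Hspd1. All 30 bases lie inside an annotated untranslated exon in GENCODE M21.

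**Figure D3:**
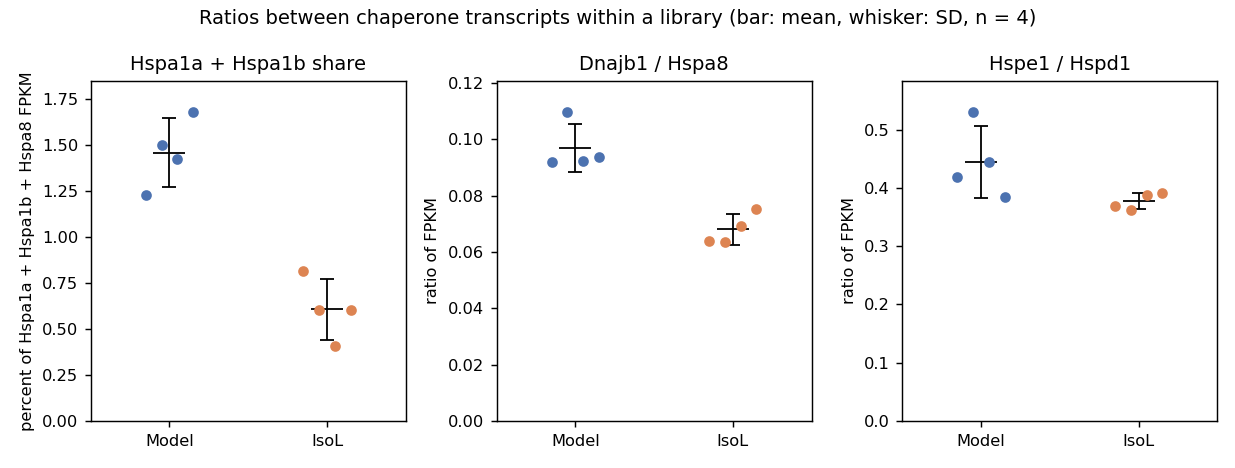
FPKM ratios within each library, with group mean and SD (n = 4): the share of Hspa1a and Hspa1b in the summed FPKM of Hspa1a, Hspa1b and Hspa8 in percent, Dnajb1 over Hspa8, and Hspe1 over Hspd1. The first and second do not overlap between groups, and the third does.

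Levels per length differed widely among the 10 genes. By deposited FPKM over the 8 libraries (mean ± SD) the order was Hsp90aa1 at 398 ± 17.7, Hspa8 at 249 ± 14.2, Hspd1 at 80.1 ± 4.73, Hsph1 at 54.0 ± 4.80, Hspe1 at 32.9 ± 3.87 and Dnajb1 at 20.5 ± 4.06. Each of these exceeded the next in the order in every library, with no overlap of their ranges. Hspb1 at 5.37 ± 1.66 and Bag3 at 5.03 ± 1.20 came next and did not differ beyond their spread. Hspa1b at 2.09 ± 0.850 and Hspa1a at 0.525 ± 0.533 were the lowest, and their ranges overlapped each other but not that of Bag3. Reads dropped for matching both copies, or for overlapping Gm20481, would lower these levels. Hsp90aa1 stood above 99.9% of the genes in the table, and Hspa1a above 38.8%. The order was the same without each library in turn. It was also the same with CPM per length in place of FPKM. Both measures rest on the same counts and lengths, so the order could hardly differ between them.

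**Figure D4:**
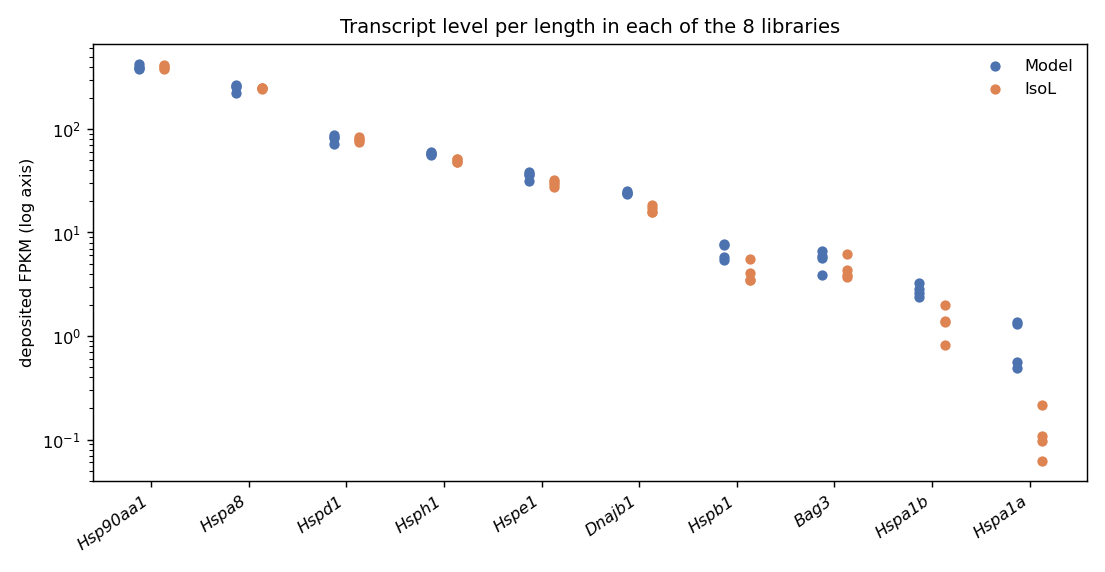
Deposited FPKM (log axis) of the 10 chaperone genes in each of the 8 libraries, Model in blue and IsoL in orange, ordered by mean level. Levels run from a mean of 398 for Hsp90aa1 to 0.525 for Hspa1a.

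The profiles of the genes over the 8 libraries were compared on log2 CPM centred per gene. The median over the 10 genes lay between 0.142 and 0.198 in Model and between -0.23 and -0.0754 in IsoL, the lowest in IsoL 2 and, among IsoL, the highest in IsoL 4. Single genes did not share 1 order of libraries. Within Model, 5 of the 10 genes were lowest in Model 2 and 4 highest in Model 4, and within IsoL no library was lowest for more than 3. The root mean square difference from the median profile was smallest for Hsph1 (0.0913 log2 units), Hspe1 (0.102) and Dnajb1 (0.109) and largest for Hspa1a (1.23). Among the 14526 other genes tested, the 5 with the smallest difference over the 8 libraries were Gpr52 (0.0433), an orphan receptor gene, Ccdc117 (0.0458), Zfp667 (0.0488), the RNA-binding protein gene Rbm12b1 (0.0574) and Ppp1r3c (0.0576), which encodes a glycogen-targeting subunit of protein phosphatase. Model libraries had 8.72 ± 0.283 CPM of Gpr52 and IsoL libraries 6.94 ± 0.281 (SD, n = 4). Ppp1r3c was at 52.3 ± 1.68 and 44.6 ± 2.95 CPM. These 5 genes were picked for their likeness to a median profile that was higher in Model. Their lower IsoL levels follow from that choice and are no separate result.

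The other genes of the pathway were taken from 9 lists with 89 genes, of which 81 were tested. In edgeR's quasi-likelihood test none of the 81 was called in either direction at an adjusted p of 0.05; 14 had an unadjusted p under 0.05 (13.2% of all genes tested did), DESeq2 called 4 (2.14% of all genes) and limma voom called 2 (1.64%). All genes called by those tools were lower in IsoL. Of the 81 genes, 11 had all IsoL libraries below all Model libraries and 1 had them all above (4.42% and 4.05% of all genes tested). The median log2 fold change was -0.03. These lists too were chosen with earlier results of these data known, so their counts are a description. For the counts below 0 in each list that follow, the share over all genes tested was 50.5%.

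Of 20 other target genes of heat shock factor none was called. A log2 fold change below 0 was found for 16 (50.5% of all genes tested), with a median of -0.09. All IsoL libraries lay below all Model libraries for 7 (4.42% of all genes tested). An unadjusted p under 0.05 in edgeR was found for 7 (13.2%). Chordc1, a co-chaperone of HSP90, had 177 ± 10.1 CPM in Model and 150 ± 5.30 in IsoL (SD, n = 4; log2 fold change -0.24, SE 0.05, edgeR adjusted p = 0.0687), without overlap. It passed in DESeq2 (adjusted p = 0.00248), in limma voom (0.0267) and without Model 2 (edgeR 0.0336). Dnajb4, a J-domain gene, was at 120 ± 7.15 and 102 ± 4.45 CPM (log2 fold change -0.23, edgeR adjusted p = 0.0946; DESeq2 0.0150, limma voom 0.0695). Among 15 HSP70 and HSP90 co-chaperones tested none was called, 11 were below 0 (median -0.05, unadjusted p under 0.05 for 5). Besides Chordc1 the leading gene was Fkbp4, a prolyl isomerase of steroid receptor complexes, at 150 ± 4.91 and 130 ± 11.0 CPM (edgeR adjusted p = 0.143).

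The factors themselves showed no call. Of 7 tested heat shock factors and regulators 4 were below 0 (median -0.04, none with an unadjusted p under 0.05). The leading genes were Dedd2, with a log2 fold change of -0.20 (edgeR adjusted p = 0.453; -0.069 without Model 2 and -0.076 in limma voom), and Sirt1, a deacetylase that acts on HSF1, with -0.12 (0.474). Ier5, a regulator of HSF1 named after its values were seen, had the same adjusted p in edgeR and a log2 fold change of 0.17. Hsf5 and Hsf2bp were too low to test.

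The remaining families gave no call either. Of 11 other HSP70 family genes 8 were below 0 (median -0.02, unadjusted p under 0.05 for 2). Hspa5, the HSP70 of the endoplasmic reticulum, had 445 ± 25.5 CPM in Model and 371 ± 20.7 in IsoL (SD, n = 4; log2 fold change -0.26, SE 0.05, edgeR adjusted p = 0.0687), without overlap. It passed in DESeq2 (adjusted p = 0.00216), in limma voom (0.00442) and without Model 2 (edgeR 0.00634). Hspa2 had a log2 fold change of 0.22 (edgeR adjusted p = 0.311). Of the 3 other HSP90 genes 1 was below 0 (median 0.0046, none with an unadjusted p under 0.05), led by the mitochondrial Trap1 (0.12, edgeR adjusted p = 0.468; 0.051 without Model 2 and 0.072 in limma voom) and by Hsp90b1 of the endoplasmic reticulum (-0.0044, 0.987).

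Of 9 genes listed as other small heat shock proteins 4 were tested and 2 were below 0 (median 0.06, unadjusted p under 0.05 for 1, Hspb11). Hspb11 had a log2 fold change of -0.26 (edgeR adjusted p = 0.377) and Hspb8, the partner of Bag3, of 0.27 (0.456), which was 0.17 without Model 1 and 0.43 without Model 3. Of 9 BAG family and exchange factor genes 7 were below 0 (median -0.03, none with an unadjusted p under 0.05), led by Bag6 (0.13, edgeR adjusted p = 0.417) and Bag2 (-0.29, 0.450). Bag6 was at 0.063 without Model 2, and Bag2 at -0.17 without IsoL 1. Of 14 subunits of the cytosolic chaperonin TRiC and prefoldin 11 were below 0 (median -0.03, unadjusted p under 0.05 for 1), led by Cct6a (-0.11, edgeR adjusted p = 0.329) and Pfdn4 (-0.16, 0.557). Pfdn4 was at -0.083 without Model 1, -0.25 without Model 4 and -0.030 in limma voom. Of 12 mitochondrial chaperones and proteases 4 were below 0 (median 0.02, unadjusted p under 0.05 for 1), led by the protease gene Htra2 (0.31, edgeR adjusted p = 0.329) and Trap1. Hspd1 and Hspe1, the chaperonin pair of the same compartment, are described above.

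**Figure D5:**
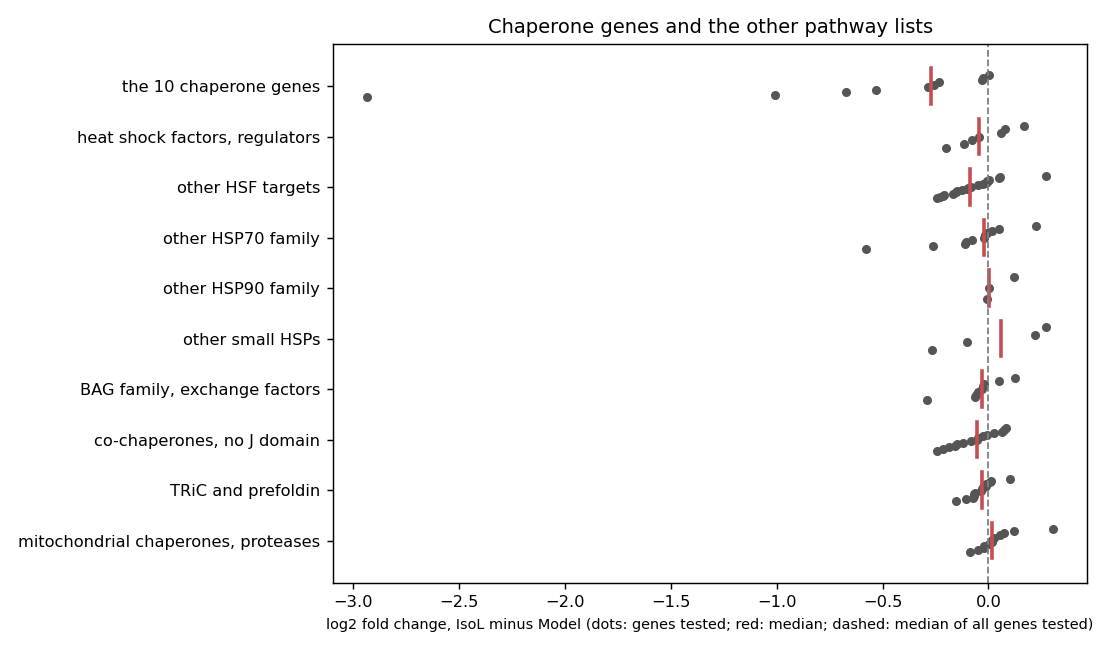
Log2 fold change (IsoL minus Model) of each gene tested in the 10 chaperone genes and in the 9 other lists, with the median of each list in red and the median of all genes tested as a dashed line. The chaperone genes have a median of -0.27, and the medians of the other lists run from -0.09 to 0.06. The 10 genes were selected with this contrast known, so nothing is read from the difference between the medians.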

How the data were processed

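Polyadenylated mouse brain RNA was counted in 8 libraries. Per the file headers, the deposited values are read counts and the authors' FPKM, which matched count, table length (the other deposited unit) and summed counts to a relative difference of 1.11e-09 for genes over 200 counts. The submitters' processing notes name fastp 0.22.0, HISAT2 2.1.0 and HTSeq 0.9.1; build, annotation and strand setting were not given in the sources used here. Genes were filtered with filterByExpr (14536 kept; at least 0.633 CPM in 4 libraries), scaled with TMM (0.983 to 1.01) and tested (edgeR 4.0.16, R 4.3.3) by robust quasi-likelihood F-tests and Benjamini-Hochberg adjustment at 0.05. SE is the absolute log2 fold change over the square root of F. The fit was tested on simulated counts. Alternatives were DESeq2 size factors, no filter, a replicate block, each library left out, DESeq2 1.42.0 and limma 3.58.1 voom. Centred profiles used a prior count of 2. Windows came from RefSeq (GRCm38.p6), transcripts from GENCODE M21, and figures from matplotlib 3.10.9.

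The genes and lists were chosen with earlier results of these data known. Named were the 10 genes, from each list the genes called or, failing that, the 2 of smallest p, and the 5 nearest profiles. Counts of 3 correspond to 0.139 to 0.210 CPM, a floor for counting error only. Libraries of a group differed beyond sampling noise (chi-square per degree of freedom at least 2.58).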

Additional observations from a re-analysis of the deposited data

Results flagged for a closer look

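In 5 of 52 groups of 4 libraries examined, for the 10 chaperone genes and the pathway genes named, 1 library stood apart from the other 3 by a gap above Dixon's 95% critical value; chance gives this for about 1 in 20 groups. Dnajb1 was at 80.7 CPM in Model 4 and at 76.3 to 77.0 in the other Model libraries, all above IsoL. Sirt1 was at 31.4 CPM in IsoL 4 and at 27.8 to 28.4 in the other IsoL libraries. Model 2 was low for Trap1 (50.5 CPM against 61.4 to 62.5 in the other Model libraries) and for Hsp90b1 (200.6 against 258 to 267). Hsp90b1 was at 255.8 CPM in IsoL 1 and at 242 to 243 in the other IsoL libraries.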

How the results depend on the processing

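The count of all genes called was 40, and it was 74 without the low-count filter, 17 with a replicate block, 311 in DESeq2, 238 in limma voom and 6 to 146 with a library left out (146 without Model 2). Of the 10 chaperone genes 2 were called (0.275% of all genes tested), 4 without the filter, 4 in DESeq2 (2.14%) and 5 in limma voom (1.64%). Limma voom called Hspa1b, Hsph1 and Hspb1 besides, and 1 to 3 were called with a library left out. Nothing is read from these counts, since the list was drawn up from this contrast. Of the other pathway genes 0 were called, 1 without the filter, 4 in DESeq2, 2 in limma voom and 0 to 2 with a library left out. The cause was not tested. Leaving out a library gave a median log2 fold change of the chaperone genes between -0.37 and -0.23, and that of the summed Hspa1a and Hspa1b -1.49 to -1.18. Of 130 alternative values of single chaperone genes, 7 changed sign, all of genes near 0. With a library left out, Hspa8 ran from -0.087 to 0.0099 (above 0 without Model 4), Hspd1 from -0.084 to 0.011 (above 0 without Model 1) and Hsp90aa1 from -0.024 to 0.045, and the last was -0.0033 in limma voom. Hsp90b1 ran from -0.091 to 0.039 and was 0.0036 under a replicate block. The replicate block left the same 2 chaperone genes called. Same-numbered libraries did not deviate together (correlations 0.026, 0.0199, 0.0696 and 0.0626 over genes for numbers 1 to 4), so the numbers were not taken as pairs. Hspa1a, with 25 reads in IsoL, is limited by depth.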

Other observations

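The ratio of Hspa1a to Hspa1b FPKM differed between libraries of the same group. It was 0.212, 0.170, 0.571 and 0.396 in Model 1 to 4 and 0.0311, 0.0695, 0.262 and 0.0797 in IsoL 1 to 4. The ranges overlapped, since IsoL 3 lay above Model 1 and Model 2. IsoL 3 was also the library with the lowest Hspa1b and the highest Hspa1a in its group, on 36 and 10 reads.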
